A study of Rattus norvegicus with 6 samples.

Results

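The core spliceosome components examined here are the 62 protein-coding rows of the count table, of 18718 rows in all, whose gene symbols name small nuclear ribonucleoprotein (snRNP) proteins, the SF3a and SF3b subunits, the branch point and 3' splice site factors, the Prp proteins, and a set of spliceosomal helicases and catalytic-stage factors. They were chosen by name and not by a measured value, although earlier results of these data were known when the choice was made. The 6 RNA-seq libraries come from HEI-OC1, an immortal cell line of auditory origin that was made from the cochlear sensory epithelium. The siHnrnpd group (3 libraries, called siHnrnpd 1 to 3) had AUF1, the RNA-binding protein that Hnrnpd encodes, knocked down with siRNA, and the control group (3 libraries, control 1 to 3) had received a control siRNA. Both groups grew in the same serum-containing medium. By its title, the study is about AUF1 in senescence, in the expression of immune genes and in the choice of splice sites. The tables hold 1 value per gene, so what was measured here is mRNA for the splicing machinery, and not splicing itself.

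The spliceosome removes introns in steps carried out by small nuclear RNAs and their proteins. The U1 snRNP recognises the 5' splice site, SF1 and the U2AF proteins mark the branch point and the 3' splice site, and the U2 snRNP then takes the branch point. The U4/U6.U5 tri-snRNP joins, RNA helicases rearrange the RNAs, and the Prp19 complex accompanies the active enzyme through both catalytic reactions. A minor spliceosome with its own snRNPs removes a rare class of introns.

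The libraries held 28984535 to 35842904 gene counts each. The targeted transcript, listed as Hnrpd, averaged 187 ± 12.2 CPM in siHnrnpd and 297 ± 25.9 CPM in control libraries (SD, n = 3 each), so 62.8% of the control level remained, where CPM are counts scaled to library size. Its log2 change of -0.67 passed the test (edgeR quasi-likelihood test, adjusted p = 0.0426). That call was lost when siHnrnpd 1 (edgeR adjusted p = 0.175), siHnrnpd 3 (0.0542), control 1 (0.0908), control 2 (0.319) or control 3 (0.0508) was left out. Of 11 hair cell markers 7 had a row, and Myo6 was the only one to average at least 1 FPKM, the fragments per kilobase of transcript scaled to depth. Pou4f3, Atoh1, Ocm and Tmc1 had no row. The summed level of the hair cell markers was 3.64 to 4.11 FPKM in siHnrnpd and 3.83 to 4.57 FPKM in control libraries. Supporting and prosensory cell markers summed to 31.8 to 43.2 FPKM in siHnrnpd and 37.1 to 42.8 FPKM in control libraries, fibroblast and mesenchymal markers to 2396 to 2984 FPKM in siHnrnpd and 2449 to 2616 FPKM in control libraries, and macrophage and leukocyte markers to 1.73 to 2.24 FPKM in siHnrnpd and 1.89 to 2.13 FPKM in control libraries. Much of the supporting and prosensory sum was Cdkn1b, with a mean of 33.2 FPKM in siHnrnpd and 35.0 FPKM in control libraries. Most of the fibroblast and mesenchymal sum was Vim, with 1863 FPKM in siHnrnpd and 1842 FPKM in control libraries. At least 1 FPKM on average was reached by 2 of 6 supporting, 7 of 10 fibroblast and 1 of 6 macrophage rows. Sox2, Isl1, Gjb2, Gjb6 and Cx3cr1 had no row. The part of these other cell type markers in the results was not tested. The organism label is rat, although the line is usually described as mouse. Which species the reads come from was not tested, and levels compared between genes carry that limit. No label says if replicates were separate cultures, and p-values then measure only how far these libraries spread, which may be technical. In such bulk samples fewer cells of a type and less RNA per cell cannot be told apart.

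Core spliceosome transcripts lay close to their control levels in siHnrnpd cells. Of the 62 members, 60 passed the filter on low counts, and of these 0 were called higher and 0 lower (edgeR quasi-likelihood test, adjusted p under 0.05). The same test called 0.0815% of the 12268 genes tested, 0.0245% of them higher and 0.0571% lower. DESeq2 also called 0 members, against 1.41% of the genes it adjusted. Unadjusted edgeR p-values were under 0.05 for 2 members with higher and 2 with lower values, or 6.67% of those tested, against 11% of all genes. Without control 3 there were 6 higher and 3 lower members, with 1919 of 12393 genes under 0.05, and without siHnrnpd 1 there were 1 and 1, with 1020 of 12389 genes. The members' smallest adjusted p by edgeR was 0.288.

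The median log2 change, siHnrnpd over control, was 0.0085 over the 60 members and 0.0054 over all genes tested. Of the members 34 had a positive and 26 a negative value. With 1 library left out, 28 to 34 were positive, and the median was negative without siHnrnpd 3 (-0.0027), control 1 (-0.005) or control 3 (-0.0081). The change was within 0.25 on the log2 scale in 58 of the 60, or 96.7%, against 82.7% of all genes tested. The 95% intervals of 58 members of the 60 lay wholly within 0.5 of no change on the log2 scale. The median within-group SD was 0.0758 log2 CPM in the members and 0.131 over all genes tested, while the median level was 30.8 FPKM in the members and 7.505 FPKM over all genes tested. Together the members took up 0.744 ± 0.0156% of gene counts in siHnrnpd and 0.731 ± 0.0170% in control libraries (SD, n = 3 each), and the groups overlapped.

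**Figure D1:**
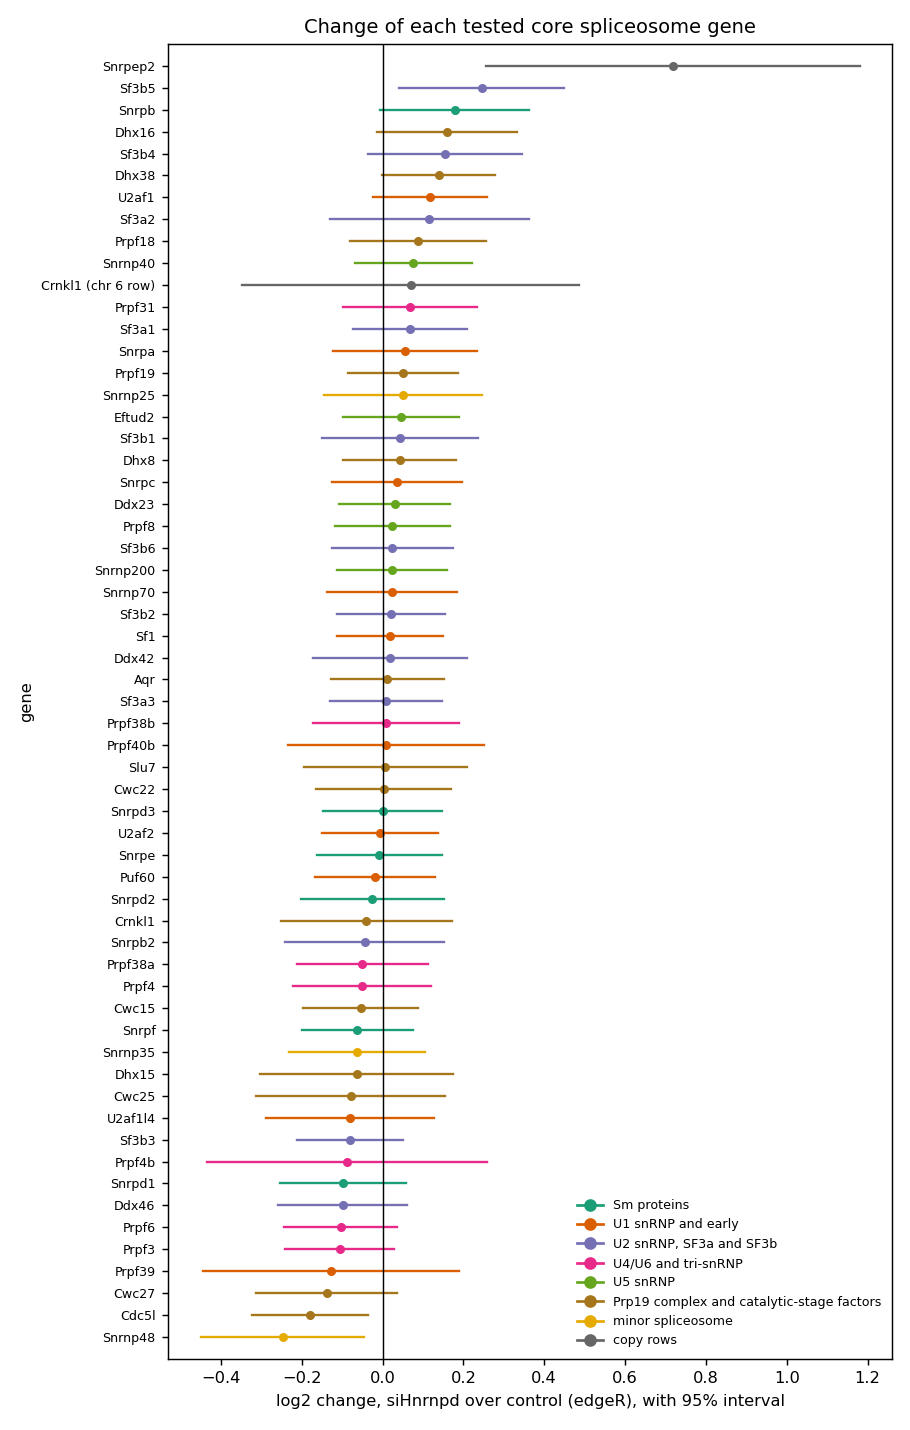
Log2 change of siHnrnpd over control (x axis) for 59 of the tested core spliceosome genes (y axis), with points for the edgeR estimate and lines for the 95% interval, coloured by subcomplex. Apart from Snrpep2, a low copy row at 0.72, the estimates shown lie near 0, as with Sf3b5 at 0.25 and Cdc5l at -0.18.

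The rat promoters of these genes give a sequence context. The line is usually described as mouse, and whether its cells carry these bases was not tested. RefSeq promoters of the rat assembly GRCr8 matched 54 of the 61 member symbols by name, and the 250 bases before each start had a median GC content of 55.4%, against 60.4% for 8573 tested genes with a promoter. Motif letters were searched on both strands and counted once per promoter, and the end of the ETS letters can overlap the start of the YY1 letters. The ETS letters CCGGAAG were found in 17 of 54, or 31.5%, against 15.9% of tested genes and 7.74% of all 27457 promoters. The letters TATAAA were found in 1 of 54, or 1.85%, against 6.05% of tested genes and 13.1% of all promoters. The CCAAT letters were in 42.6% of members, 36.2% of tested genes and 34.3% of all promoters, and the GC box GGGCGG in 40.7%, 60.3% and 32.4% of the same sets. The palindromic NRF1 motif was in 3.70% of members, 1.92% of tested genes and 0.849% of all promoters. The YY1 letters AAGATGGC were in 0 of 54, against 2.33% of tested genes and 1.69% of all promoters. A match describes letters and is not a binding site. The Snrpe promoter is that of the chromosome 13 gene, whereas the counted Snrpe row lies on chromosome 8. The 250 bases before the start are printed for abundant Sm genes, Snrpb (chr3:137832480-137832729, minus strand) and Snrpf (chr7:30024163-30024412, minus strand), and for Sf3b5 (chr1:9176939-9177188, plus strand) and Cdc5l (chr9:23062147-23062396, plus strand), whose siHnrnpd libraries lay above and below the control ones. They read 5' to 3', with matches to the searched letters in capitals.
Snrpb: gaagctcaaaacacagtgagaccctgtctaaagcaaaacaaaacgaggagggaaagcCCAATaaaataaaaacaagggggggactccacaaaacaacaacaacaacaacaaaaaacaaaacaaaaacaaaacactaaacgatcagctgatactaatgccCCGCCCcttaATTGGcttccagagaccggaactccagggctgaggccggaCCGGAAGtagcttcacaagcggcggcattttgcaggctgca
Snrpf: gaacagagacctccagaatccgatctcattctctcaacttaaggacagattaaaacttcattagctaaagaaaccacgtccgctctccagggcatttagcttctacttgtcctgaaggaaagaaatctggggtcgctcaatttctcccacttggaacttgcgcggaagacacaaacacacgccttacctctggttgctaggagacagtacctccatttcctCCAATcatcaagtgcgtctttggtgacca
Sf3b5: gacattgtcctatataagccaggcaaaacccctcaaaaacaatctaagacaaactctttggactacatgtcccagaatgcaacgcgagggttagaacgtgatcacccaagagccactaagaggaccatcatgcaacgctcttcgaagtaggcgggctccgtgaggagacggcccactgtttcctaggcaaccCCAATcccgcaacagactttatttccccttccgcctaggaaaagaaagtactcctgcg
Cdc5l: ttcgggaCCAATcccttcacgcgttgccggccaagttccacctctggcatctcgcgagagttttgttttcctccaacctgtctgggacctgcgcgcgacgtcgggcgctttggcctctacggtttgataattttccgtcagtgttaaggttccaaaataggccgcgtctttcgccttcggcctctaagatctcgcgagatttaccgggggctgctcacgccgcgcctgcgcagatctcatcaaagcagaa
Snrpb holds 4 matches, among them the ETS letters, and Snrpf, Sf3b5 and Cdc5l hold 1 match each, to CCAAT.

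The Sm proteins form the ring common to most spliceosomal snRNPs, and their mRNAs were the most abundant group per length, with a median of 258 FPKM (188 to 343 FPKM) over 6 tested members. Of these 1 had a positive and 5 a negative log2 change (median -0.017). Positive and negative values numbered 2 to 4 without siHnrnpd 1, 2 to 4 without siHnrnpd 2, 4 to 2 without siHnrnpd 3 and 3 to 3 without control 2, and the median lay between -0.054 and 0.012 over the libraries left out singly. With upper-quartile scaling 3 were positive and 3 negative. Snrpb, the gene of SmB, had 474, 425 and 438 CPM in siHnrnpd 1 to 3, against 357, 394 and 430.4 CPM in control 1 to 3. The groups overlapped at siHnrnpd 2 and control 3, and the log2 value of 0.18 (SE 0.082) missed the threshold (edgeR adjusted p = 0.460). It was 0.10 without control 1. Snrpf, the gene of SmF, had 328, 328 and 319 CPM in siHnrnpd 1 to 3, against 328, 336 and 353 CPM in control 1 to 3. The siHnrnpd libraries all lay below the control ones, although by less than 1 CPM at the nearest, with a log2 value of -0.063 (SE 0.061) and an edgeR adjusted p of 0.749. Without control 3 it was -0.033, and without control 1 -0.097.

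Snrpd3, which encodes SmD3, had 252, 239 and 229 CPM in siHnrnpd 1 to 3, against 234, 249 and 237 CPM in control 1 to 3. Snrpd1, which encodes SmD1, had 225, 230.4 and 208 CPM in siHnrnpd 1 to 3, against 246, 241 and 223 CPM in control 1 to 3, with a log2 value of -0.098 (SE 0.070) and an edgeR adjusted p of 0.638. In both the groups overlapped. Snrpd2, the gene of SmD2, had 221, 204 and 184 CPM in siHnrnpd 1 to 3, against 197, 209.9 and 212 CPM in control 1 to 3, and its groups overlapped. Snrpn, a paralog of Snrpb expressed mainly in neurons and heart, had 5, 1 and 3 counts in siHnrnpd 1 to 3, against 1, 1 and 1 counts in control 1 to 3, too few to be tested.

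For the remaining Sm rows it is less sure what was counted. Snrpe, the gene of SmE, was the highest member per length at a mean of 343 FPKM, with 163, 175 and 162 CPM in siHnrnpd 1 to 3, against 167, 177 and 159 CPM in control 1 to 3. Its groups overlapped. The deposited table places that row on chromosome 8, whereas the RefSeq gene table of GRCr8 has Snrpe on chromosome 13 and, on chromosome 8, the pseudogene Snrpel1, which carries Snrpe as a synonym. RefSeq lists 30 copies of Sm genes, Snrpel1 among them, and 25 of the 30 are pseudogenes, so reads of near-identical copies may be split or shared and the Sm values are uncertain to that extent. Snrpep2, another SmE copy row, had 71, 70 and 71 counts in siHnrnpd 1 to 3, against 27, 44 and 53 counts in control 1 to 3. All its siHnrnpd libraries lay above the control ones, and its log2 value of 0.72 (SE 0.21), the largest of the members, missed the threshold (edgeR adjusted p = 0.288). Without control 1, its lowest library, the log2 value was 0.54. Snrpd2l, a pseudogene in RefSeq, had 1, 1 and 1 counts in siHnrnpd 1 to 3, against 0, 0 and 3 counts in control 1 to 3, too few to be tested. No row under the symbol Snrpg was analysed here.

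**Figure D2:**
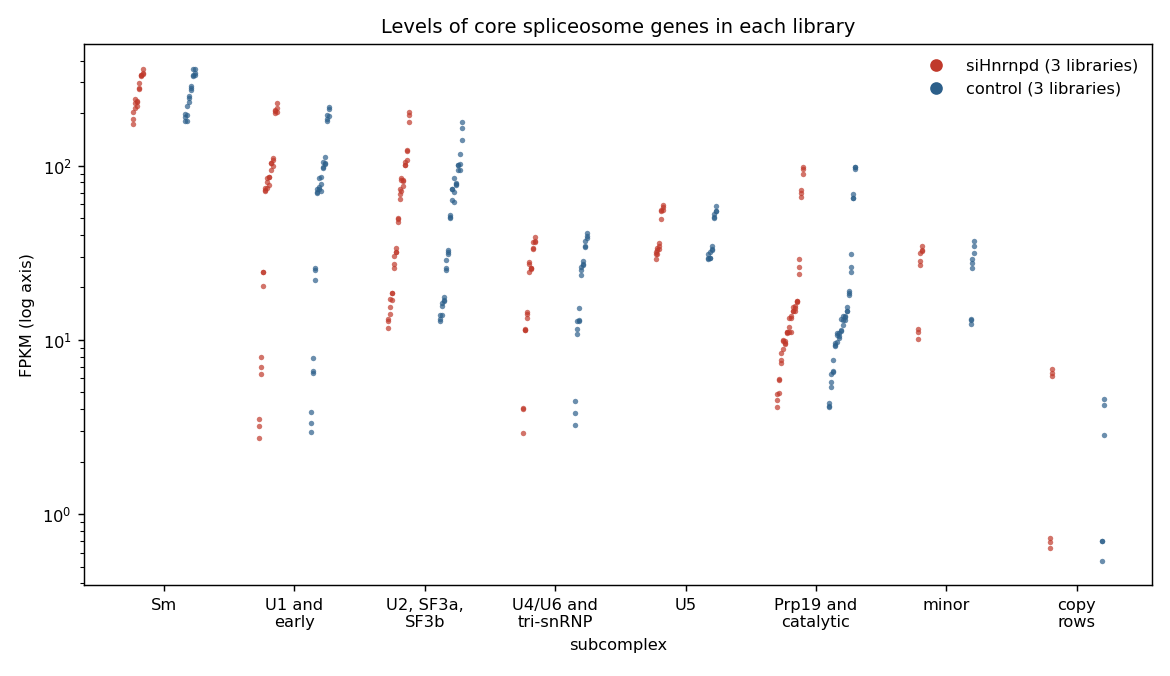
FPKM on a log axis for 59 tested core spliceosome genes in each library, by subcomplex, with siHnrnpd libraries left of control libraries. The Sm genes lie highest as a group, with means of 188 to 343 FPKM. Snrpc at 211 FPKM and U2af1 at 196 FPKM, of the U1 and early group, lie within that range. Genes of a subcomplex differ far more from each other than the groups do.

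The U1 snRNP and early factors numbered 11, all tested, with a median of 78.8 FPKM (3.26 to 211 FPKM). Of these 6 had a positive and 5 a negative log2 change (median 0.0074). This split rested on single libraries: it was 4 to 7 without siHnrnpd 1, 8 to 3 without siHnrnpd 2, 5 to 6 without siHnrnpd 3, 1 to 10 without control 1, 4 to 7 without control 2 and 8 to 3 without control 3, and the median lay between -0.039 and 0.030 over the libraries left out singly. U2af1, the small U2AF subunit that reads the AG of the 3' splice site, had 231, 232 and 217 CPM in siHnrnpd 1 to 3, against 202, 211 and 214 CPM in control 1 to 3. Its siHnrnpd libraries all lay above the control ones, and the log2 value of 0.12 (SE 0.063) missed the threshold (edgeR adjusted p = 0.525). Its partner U2af2, which binds the polypyrimidine tract, had 207, 190.4 and 202 CPM in siHnrnpd 1 to 3, against 194, 199.9 and 207 CPM in control 1 to 3, so the groups overlapped. The ratio of U2af1 to U2af2 in FPKM was 2.004, 2.18 and 1.93 in siHnrnpd 1 to 3, against 1.86, 1.89 and 1.85 in control 1 to 3. The siHnrnpd ratios all lay above the control ones, but with 3 libraries a group no exact permutation p (two-sided) can be smaller than 0.1. The other ratios formed, U2af1 to U2af1l4, Prpf38a to Prpf38b, Prpf4 to Prpf4b, Sf3b5 to Sf3b1 and Snrpb to Snrpd1, all overlapped between the groups. The paralog U2af1l4 had 34.5, 28.7 and 33.7 CPM in siHnrnpd 1 to 3, against 31.1, 35.8 and 35.6 CPM in control 1 to 3, and its groups overlapped.

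Prpf40b, a U1-associated protein, had 29.2, 25.7 and 22.8 CPM in siHnrnpd 1 to 3, against 23.9, 24.8 and 28.5 CPM in control 1 to 3. Prpf39, another U1-associated protein, was the lowest tested member per length other than copy rows, with 2.73, 3.49 and 3.19 FPKM in siHnrnpd 1 to 3, against 3.85, 3.35 and 2.97 FPKM in control 1 to 3. For Prpf40b and Prpf39 the groups overlapped, as they did for Snrnp70, Snrpa and Snrpc of the U1 snRNP, for the branch point binder Sf1 and for Puf60, which acts beside U2AF.

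The U2 snRNP group, with SF3a, SF3b and the helicases Ddx42 and Ddx46, held 12 members with a median of 59.7 FPKM (13.0 to 176 FPKM). Of these 9 had a positive and 3 a negative log2 change (median 0.022). The split of positive to negative was 7 to 5 without siHnrnpd 3 and 6 to 6 without control 3, and the median lay between 0.00061 and 0.038 over the libraries left out singly. Sf3b5, a small subunit of the SF3b complex that holds the branch point, had 169, 149.9 and 157 CPM in siHnrnpd 1 to 3, against 117, 139 and 146 CPM in control 1 to 3. All siHnrnpd libraries lay above all control libraries, and the log2 value of 0.25 (SE 0.091) missed the threshold (edgeR adjusted p = 0.374). Without control 1 it was 0.15. Sf3b4, which contacts RNA near the branch point, had 220.4, 194 and 213 CPM in siHnrnpd 1 to 3, against 169.97, 187 and 206 CPM in control 1 to 3. The groups overlapped at siHnrnpd 2 and control 3, and the log2 value of 0.15 (SE 0.085) missed the threshold (edgeR adjusted p = 0.540). It was 0.077 without control 1.

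Other subunits of the same complex gave smaller or negative values. Sf3b1, the large scaffold that is recurrently mutated in blood cancers, had 149, 176 and 155 CPM in siHnrnpd 1 to 3, against 168, 153 and 143 CPM in control 1 to 3, and its groups overlapped. Sf3b3, a large subunit that supports Sf3b1, had 262, 251 and 253 CPM in siHnrnpd 1 to 3, against 268, 269.8 and 272 CPM in control 1 to 3. All siHnrnpd libraries of Sf3b3 lay below the control ones, with a log2 value of -0.081 (SE 0.058) and an edgeR adjusted p of 0.643. Ddx46, the helicase that helps U2 onto the branch point, had 49.3, 54.9 and 54.6 CPM in siHnrnpd 1 to 3, against 59.3, 55.6 and 55.2 CPM in control 1 to 3, with a log2 value of -0.099 (SE 0.071) and an edgeR adjusted p of 0.643. It was -0.051 without siHnrnpd 1. The groups of Ddx46 also lay apart, by less than 1 CPM at the nearest. The groups overlapped in the remaining members, Sf3a1 and Sf3a3 of SF3a, Sf3b2 and Sf3b6 of SF3b, the U2 protein Snrpb2 and the helicase Ddx42, whose mean levels ran from 15.4 FPKM for Ddx42 to 100.3 FPKM for Sf3b6. The ratio of Sf3b5 to Sf3b1 in FPKM was 6.98 ± 0.998 in siHnrnpd and 6.08 ± 1.14 in control libraries (SD, n = 3 each).

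Of the 7 members of the U4/U6 snRNP and the tri-snRNP, with a median of 25.8 FPKM (3.74 to 38.4 FPKM), 2 had a positive and 5 a negative log2 change, and the median was -0.052. Positive against negative values numbered 3 to 4 without siHnrnpd 1 and 4 to 3 without control 1. They numbered 1 to 6 without siHnrnpd 2, siHnrnpd 3, control 2 or control 3. The median lay between -0.094 and 0.0073 over the libraries left out singly. Prpf3, a U4/U6 protein, had 72.3, 72.3 and 71.1 CPM in siHnrnpd 1 to 3, against 75.9, 78.2 and 78.1 CPM in control 1 to 3. Prpf6, which bridges the parts of the tri-snRNP, had 139, 131 and 129 CPM in siHnrnpd 1 to 3, against 142, 142 and 146 CPM in control 1 to 3. In both genes the siHnrnpd libraries all lay below the control ones. The log2 value of -0.11 (SE 0.060) of Prpf3 missed the threshold (edgeR adjusted p = 0.545), as did the log2 value of -0.10 (SE 0.062) of Prpf6 (edgeR adjusted p = 0.564).

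Prpf4, which binds Prpf3 in the U4/U6 snRNP, had 34.6, 34.6 and 34.2 CPM in siHnrnpd 1 to 3, against 39.1, 33.5 and 34.6 CPM in control 1 to 3. Prpf4b, a kinase that acts on tri-snRNP proteins, was among the lowest members per length, with 2.90, 4.04 and 4.01 FPKM in siHnrnpd 1 to 3, against 4.46, 3.81 and 3.23 FPKM in control 1 to 3. Both overlapped between the groups, as did Prpf31, a U4/U6 protein whose mutations cause retinal degeneration, at a mean of 25.8 FPKM. The paralogs Prpf38a and Prpf38b also overlapped. Prpf38a, a protein of the precatalytic complex, had 65.0, 70.7 and 62.9 CPM in siHnrnpd 1 to 3, against 72.0, 67.5 and 66.1 CPM in control 1 to 3, and Prpf38b had 47.3, 50.2 and 50.2 CPM in siHnrnpd 1 to 3, against 54.4, 46.7 and 45.9 CPM in control 1 to 3.

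The 5 U5 proteins, with a median of 34.0 FPKM (30.3 to 56.9 FPKM), all had small positive log2 changes with a median of 0.030 (from 0.023 to 0.076). Without siHnrnpd 1, or without control 1, 3 were positive and 2 negative. Prpf8, the scaffold at the heart of the catalytic centre, had 278, 255 and 266 CPM in siHnrnpd 1 to 3, against 255, 262 and 269.8 CPM in control 1 to 3. The groups overlapped in all 5, which include the helicases Snrnp200 and Ddx23 and the GTPase Eftud2.

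Among 14 Prp19 complex and catalytic-stage factors, with a median of 12.4 FPKM (4.36 to 95.7 FPKM), 8 had a positive and 6 a negative log2 change, and the median was 0.0049. This split moved to 10 to 4 without siHnrnpd 1, 7 to 7 without siHnrnpd 2 and 5 to 9 without siHnrnpd 3. It was 7 to 7 without control 2 and 6 to 8 without control 3. The median lay between -0.042 and 0.044 over the libraries left out singly. Cdc5l, a core Prp19 complex protein whose promoter is printed above, had 54.8, 55.5 and 53.1 CPM in siHnrnpd 1 to 3, against 63.4, 62.6 and 59.1 CPM in control 1 to 3. All siHnrnpd libraries lay below the control ones, and the log2 value of -0.18 (SE 0.064) missed the threshold (edgeR adjusted p = 0.358). Dhx38, the helicase that acts before the second catalytic reaction, had 76.0, 76.2 and 77.8 CPM in siHnrnpd 1 to 3, against 67.2, 71.3 and 70.4 CPM in control 1 to 3. Here the siHnrnpd libraries all lay above the control ones, and the log2 value of 0.14 (SE 0.062) missed the threshold (edgeR adjusted p = 0.452). Dhx16, the helicase that acts before the first reaction, had 46.3, 45.2 and 49.9 CPM in siHnrnpd 1 to 3, against 39.8, 41.1 and 45.8 CPM in control 1 to 3. Its groups overlapped, with a log2 value of 0.16 (SE 0.077) and an edgeR adjusted p of 0.483. It was 0.11 without siHnrnpd 3. Cwc27, a cyclophilin-like protein, had 25.3, 26.0 and 25.9 CPM in siHnrnpd 1 to 3, against 29.7, 29.3 and 26.0 CPM in control 1 to 3. Its siHnrnpd libraries lay below the control ones by less than 1 CPM at the nearest, with a log2 value of -0.14 (SE 0.078) and an edgeR adjusted p of 0.545.

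The groups overlapped in Prpf19, the ubiquitin ligase that names the complex, in the helicases Aqr, Dhx8 and Dhx15, in the second-step factors Slu7 and Prpf18, and in Cwc15, Cwc22 and Cwc25. The mean levels of these ran from 4.36 FPKM for Prpf18 to 95.7 FPKM for Cwc15. Crnkl1, another Prp19-related protein, had 2 rows. The row on chromosome 3 had 30.2, 36.6 and 36.5 CPM in siHnrnpd 1 to 3, against 37.6, 36.1 and 32.5 CPM in control 1 to 3. The row on chromosome 6 had only 62, 64 and 64 counts in siHnrnpd 1 to 3, against 57, 62 and 53 counts in control 1 to 3, and RefSeq lists the gene on chromosome 3 and a pseudogene of it on chromosome 6, so reads may have been split between them. In the minor spliceosome, Snrnp48, a U11/U12 protein, had 14.2, 16.3 and 15.2 CPM in siHnrnpd 1 to 3, against 18.3, 17.7 and 18.3 CPM in control 1 to 3. All siHnrnpd libraries lay below the control ones, and the log2 value of -0.25 (SE 0.090) missed the threshold (edgeR adjusted p = 0.363). Its partner Snrnp25 averaged 25.6 ± 2.14 CPM in siHnrnpd and 24.8 ± 1.36 CPM in control libraries (SD, n = 3 each), and Snrnp35 averaged 42.6 ± 1.60 CPM in siHnrnpd and 44.5 ± 3.21 CPM in control libraries (SD, n = 3 each). In both the groups overlapped.

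In all, siHnrnpd and control libraries did not overlap in 12 of the 60 members, or 20%, against 17% of all genes tested. The siHnrnpd libraries lay above in 4 members (8.42% of all genes) and below in 8 (8.57% of all genes). Taken over both directions, the share of 20% is near the 17% of all genes. The members lay below more often than above, which was not tested.

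**Figure D3:**
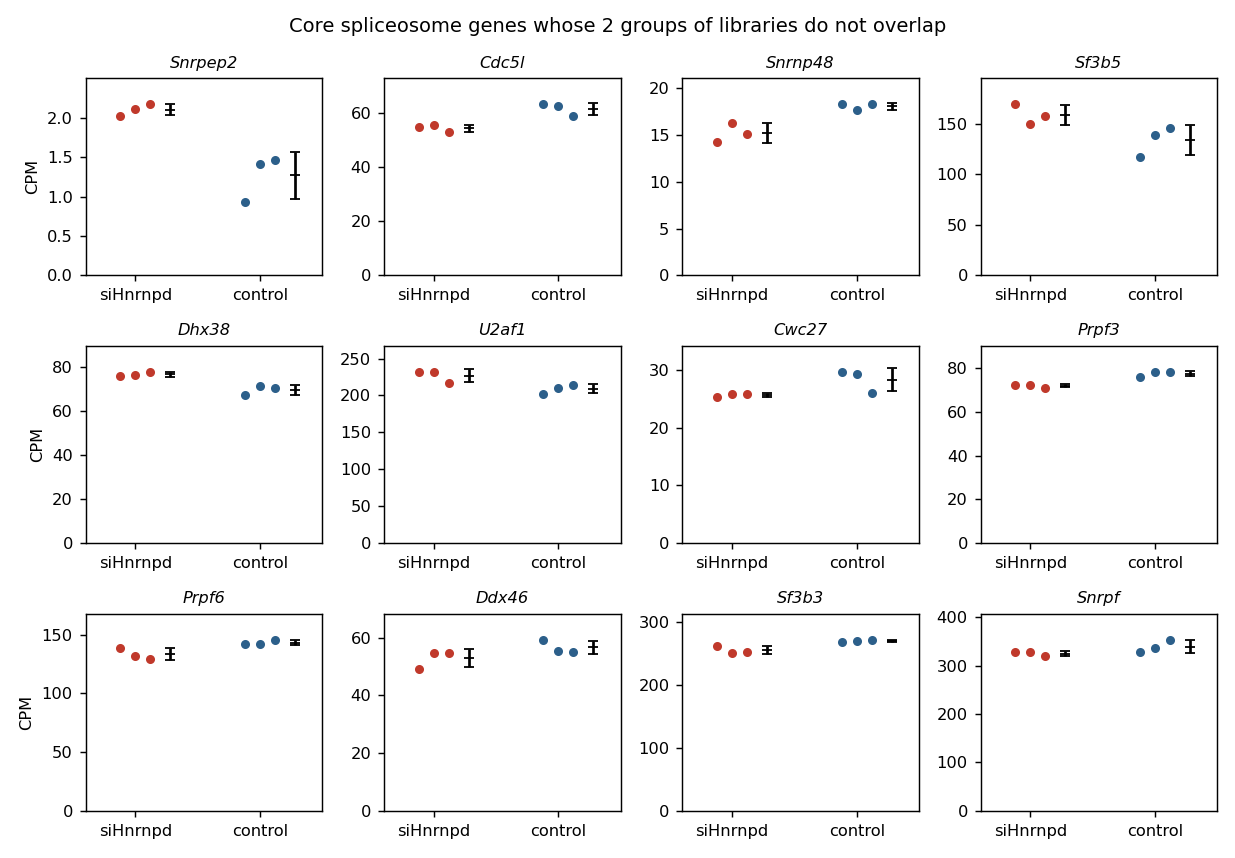
CPM of the 12 core spliceosome genes whose siHnrnpd libraries (left) and control libraries (right) do not overlap, with a point for each library and the mean with SD. Apart from the low row Snrpep2 the distances are small, as in Cdc5l with 53.1 to 55.5 CPM in siHnrnpd and 59.1 to 63.4 CPM in control libraries.

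Several members varied between libraries in a like way in both groups. Prpf4b, given above, was high in siHnrnpd 2 and control 1 and low in siHnrnpd 1 and control 3. Dhx15, the helicase that takes the spliced complex apart, showed the same order, with 83.4, 103 and 89.8 CPM in siHnrnpd 1 to 3, against 109, 94.4 and 84.9 CPM in control 1 to 3. Sf3a2, an SF3a subunit, showed the opposite, with 158, 135 and 152 CPM in siHnrnpd 1 to 3, against 118, 134 and 159 CPM in control 1 to 3. Across the 60 members, the log2 difference of siHnrnpd 1 minus siHnrnpd 2 and that of control 3 minus control 1, which share no library, had a Pearson correlation of 0.77 (Spearman 0.79), and 51 had the same sign. This is a description over genes of the same libraries, and the pair was picked after the values were seen as the strongest of 9 pairs of within-group differences, whose correlations in the members ran in size from 0.42 to 0.77. Over the 6588 genes at 20 CPM or more on average the same pair gave 0.72, and over all 12268 genes tested it gave 0.34.

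In both differences the first library is the deeper one: siHnrnpd 1 held 35534620 and siHnrnpd 2 33329136 counts, and control 3 held 35842904 and control 1 28984535 counts. Across the 60 members, the siHnrnpd difference correlated with log2 mean FPKM at 0.50 and the control difference at 0.38. With log2 transcript length, as implied by counts and FPKM, these correlations were -0.20 and -0.32. The part of depth, level or length in the pattern was not tested. A fit with 1 surrogate variable, added after the data were seen, also called 0 members by edgeR, with a smallest adjusted p of 0.292. That variable was -0.52, 0.23 and -0.23 in siHnrnpd 1 to 3, against 0.69, 0.18 and -0.35 in control 1 to 3. The library siHnrnpd 3, which shared the sign of siHnrnpd 1 and control 3, was the shallowest of its group at 31735235 counts.

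**Figure D4:**
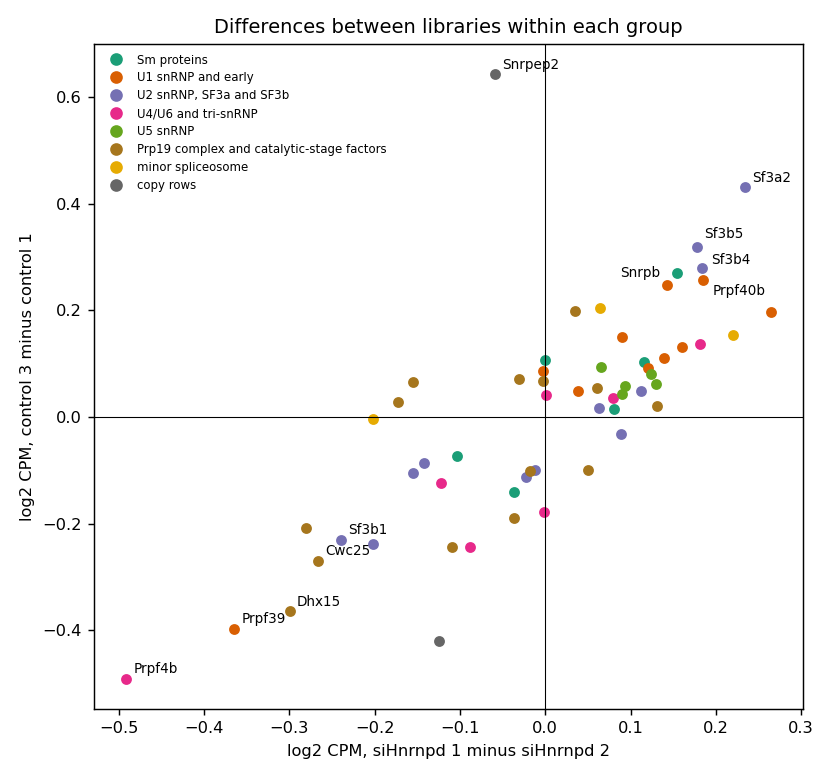
For 59 of the tested core spliceosome genes, the log2 CPM difference of siHnrnpd 1 minus siHnrnpd 2 (x axis) and of control 3 minus control 1 (y axis), coloured by subcomplex. The points follow a shared slope (correlation 0.77 over all 60), with Prpf4b at the lower left and Sf3a2 at the upper right.

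To set the pathway around these members, 67 further spliceosome genes were listed, of which 63 had a row and 62 were tested. Of these 0 were called by edgeR in either direction. Unadjusted p-values were under 0.05 for 0 with higher and 4 with lower values, against 5.84% higher and 5.2% lower of all genes, and the median log2 change was -0.021. That median was 0.0058 with 1 surrogate variable and -0.033 to -0.0041 without 1 library, and without control 2 the unadjusted count was 0 higher and 2 lower. Bud31, a catalytic-stage protein, had 115, 112 and 112 CPM in siHnrnpd 1 to 3, against 130.4, 142 and 136 CPM in control 1 to 3. All its siHnrnpd libraries lay below the control ones. Its log2 value of -0.27 (SE 0.063) missed the threshold by edgeR (adjusted p = 0.196), whereas DESeq2 called it lower (adjusted p = 0.0340), the 1 call DESeq2 made in this list. Zcrb1, a protein of the minor spliceosome, had 78.5, 86.8 and 77.2 CPM in siHnrnpd 1 to 3, against 96.0, 95.2 and 91.5 CPM in control 1 to 3, and its log2 value was -0.22 at an edgeR adjusted p of 0.323. Txnl4a, a small U5 protein, had 77.1, 75.5 and 78.5 CPM in siHnrnpd 1 to 3, against 88.6, 88.5 and 85.1 CPM in control 1 to 3, and its log2 value was -0.18 at an edgeR adjusted p of 0.338. Luc7l, a U1-associated protein, had 31.7, 28.4 and 30.2 CPM in siHnrnpd 1 to 3, against 34.3, 34.5 and 33.8 CPM in control 1 to 3, and its log2 value was -0.18 at an edgeR adjusted p of 0.384. In these 3 too the siHnrnpd libraries all lay below the control ones. Over the 62 tested, the groups did not overlap in 12, or 19.4%, against 17% of all genes. The siHnrnpd libraries lay above in 5 of these (8.42% of all genes) and below in 7 (8.57% of all genes). In the ring of LSm proteins, which binds U6, 6 of 7 values were positive, with a median of 0.080, and 0 were called by edgeR or DESeq2. Without siHnrnpd 3, or without control 1, 4 were positive, and the median was 0.042 without siHnrnpd 3, 0.045 without siHnrnpd 1 and 0.021 without control 1. By DESeq2 5 of the 7 were positive, and with 1 surrogate variable the median was 0.015.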

How the data were processed

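The authors deposited whole-number read counts per gene and FPKM values. Per the submitters' processing notes, TopHat2 and the build mRatBN7.2 were used. No source used here gives the aligner's version, the counter, its strand setting or the annotation, so reads of overlapping, antisense or duplicated genes cannot be told apart. Columns were matched to samples by siRNA name and number, and 0 stayed unmatched. The members, roles and lists were chosen with earlier results of these data known.

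The main test on the deposited counts was edgeR 4.0.16 (R 4.3.3; TMM scaling, filterByExpr, quasi-likelihood fit on group, Benjamini-Hochberg over 12268 genes, calls at an adjusted p under 0.05). CPM use TMM-scaled library sizes, and log2 CPM of single libraries add 0.5 to each count. Levels between genes use the authors' FPKM. Alternatives were DESeq2 1.42.0, limma-voom (limma 3.58.1), other scalings and filters, a block for the replicate number, each library left out, and limma on the FPKM with 1 or 0.1 added before log2. Added after the data were seen were 1 surrogate variable (sva 3.50.0) and a count without copy rows. Tests were tried on simulated counts first. Members given per library are the 12 with the smallest p, the 3 highest and 3 lowest levels and the paralog pairs, but 1 member is not reported here and is left out of the figures. Snrpd1, Snrpd2, Sf3b1, Sf3b3, Ddx46, Prpf6, Prpf8, Sf3a2, Dhx15, the chromosome 3 row of Crnkl1 and Snrpd2l were added after their values were seen. Library pairs, 15 in all, each showed differences beyond sampling noise.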

Additional observations from a re-analysis of the deposited data

How the results depend on the processing

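Under the alternatives run, 0 members were called higher and 0 lower by edgeR, DESeq2, limma-voom and limma on FPKM, with smallest adjusted p between 0.176 and 0.755. For the 16 members and 4 further genes given with a log2 value, 340 alternative values had the same sign, and Bud31 with DESeq2 (-0.27) was the 1 that passed the threshold. Most of these genes were picked from the same libraries for a small p or for groups that did not overlap. Their kept sign was thus largely fixed beforehand and adds no support. The members' median of 0.0085 became 0.020 with upper-quartile scaling, 0.025 on log2(FPKM + 1), 0.026 on log2(FPKM + 0.1), 0.025 on log2(FPKM + 1) with no minimum, and -0.0081 to 0.014 when 1 library was left out. With these, the median of all genes was 0.017 (upper-quartile), 0.018 (FPKM + 1), 0.019 (FPKM + 0.1) and 0.0048 (FPKM + 1, no minimum). Hnrnpd kept its direction in each, but its value of -0.65 on log2(FPKM + 1) did not pass with or without the minimum (limma adjusted p = 0.0508 and 0.137), and without 1 library it was -0.74 to -0.63. No pairing by replicate number was seen: same-numbered libraries deviated from their group means with correlations of -0.25, 0.14 and 0.11 over all genes tested. Differently numbered libraries gave -0.33 to 0.23. Whether same-numbered libraries were handled together was not tested. With the replicate number as a block, 0 members were called and the Hnrnpd log2 change of -0.67 did not pass (edgeR adjusted p = 0.0873). Over all genes the 10 calls became 162 with DESeq2, 147 without a filter, 18 with the surrogate variable, 6 with upper-quartile scaling, 5 on log2(FPKM + 0.1), 0 on log2(FPKM + 1), 0 with the block, and 0 to 14 without 1 library. The causes were not tested.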

Other observations

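A row outside the members, described in the deposited table as similar to SmG (LOC687679), had 66, 57 and 56 counts in siHnrnpd 1 to 3, against 44, 44 and 40 counts in control 1 to 3. All siHnrnpd libraries lay above the control ones, as in the SmE copy Snrpep2, and the difference missed the threshold (edgeR adjusted p = 0.470). The far more abundant row described as SmG-like (LOC100360635) had 259, 228 and 229 CPM in siHnrnpd 1 to 3, against 232, 248 and 240.5 CPM in control 1 to 3, and its groups overlapped. The row described as U2 polypeptide A-like (LOC100364748) had 78.5, 77.8 and 71.8 CPM in siHnrnpd 1 to 3, against 73.4, 75.1 and 68.6 CPM in control 1 to 3, and its groups overlapped too. These rows were named after their values were seen.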
